A study of Mus musculus with 9 samples.

Results

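The 10 genes described here are the heat shock chaperones Hspa1a, Hspa1b, Hspa8, Hsph1, Dnajb1, Hsp90aa1, Hsp90ab1, Hspd1 and Hspb1, together with Hsf1, the transcription factor that switches the heat shock response on. They were chosen by name, as genes of this response and with earlier results of these data known, from the 55401 genes in the tables. Any read at all was found for 42643 of those genes. In murine H9M acute myeloid leukemia, Hsp90aa1, the inducible cytosolic HSP90, was 1.58- to 1.59-fold higher in the expanded clones than in pre-malignant clones. Its libraries did not overlap, as for 10.6% of all genes upward in the de novo and 16.1% in the stably expanded comparison. The adjusted p was 0.330 for de novo and 0.0417 for stably expanded clones (limma), and the latter did not pass in several alternative fits. Hspa1a and Hspa1b, the stress-inducible HSP70 genes, stayed within a narrow range in the pre-malignant libraries, which all came from 1 mouse. Among the libraries as a whole they spanned 68.0- to 85.3-fold. In expanded clones, which came from several mice, 2 libraries held very few of their reads and a further 2 held many. For the other tested members the groups overlapped.

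H9M cells are bone marrow progenitors of C57BL/6-Ly5.1 mice that carry a retroviral vector for Meis1 and Hoxa9, and all groups share this vector and a lentiviral color-code vector that labels each clone. A mix of 24 color-coded clones was transplanted with helper bone marrow into lethally irradiated C57Bl6/J recipients, and donor cells that were cKit+ and dim or negative for CD11b were sorted from thawed spleen samples. The 3 pre-malignant libraries came from mouse #15, killed 4 weeks after transplantation and before leukemia, and held the clones with color codes 38BC-D, 43BC-D and, as the last, 33BC-D. The 3 de novo expanded libraries held the same clones, in this order from mice #13, #14 and #17, at the leukemic endpoint, and the 3 stably expanded libraries held clone 34BC-D from these mice. The age of the animals was not given in the sources used here. All pre-malignant libraries came from 1 mouse, so mouse and disease stage cannot be told apart, and all stably expanded libraries came from 1 clone. The deposited data tie each library to its group but not to its clone or mouse. The numbers 1 to 3 that libraries carry here follow column order and were not used to pair libraries between groups. Whether libraries of the same number came from the same mouse is not known. The p-values measure the spread between these libraries.

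Chaperones bind unfolded protein and help it fold, refold or reach a protease. HSP70 proteins work in cycles of ATP hydrolysis that J proteins (HSP40) start and exchange factors such as HSP110 end, and they pass many clients on to HSP90. In stressed cells HSF1 is freed from chaperones, forms trimers and binds heat shock elements, repeats of the unit GAA and its reverse complement TTC, upstream of genes such as Hspa1a. Leukemic cells are known to depend on HSP90 for the stability of many kinases and transcription factors.

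Levels are normalized counts, that is reads per gene divided by a size factor that sets the 9 libraries to a common scale. Reads on genes numbered 10379739 to 15551196 per library. The cells were sorted for cKit, and its gene Kit had 1937 to 3979 normalized counts in all 9 libraries, next to 4311 to 9485 for Hoxa9 and 7314 to 15174 for Meis1. Of markers of other cell types, the summed level of 7 neutrophil markers was 2412 to 2952 normalized counts in pre-malignant, 2014 to 7668 in de novo and 7263 to 58849 in stably expanded libraries, with the highest value in stably expanded library 1. The summed level of 7 B cell markers was 2912 to 3491 in pre-malignant libraries against 1030.0 to 2781 in de novo and 1179 to 1426 in stably expanded ones. Macrophage markers summed to 3699 to 4883 in pre-malignant libraries, 2266 to 3688 in de novo and 2591 to 3249 in stably expanded ones. In the same order, erythroid markers summed to 239 to 588, 28.9 to 227 and 57.8 to 359. Stroma and endothelium markers summed to 3213 to 3384, 1384 to 3301 and 1239 to 1965. Of these 4 stroma and endothelium markers, only 1 was high enough to be tested. Their sum is thus in effect the level of 1 gene and does not measure stroma or endothelium as a class. T cell, NK cell and platelet markers summed to at most 41.9 normalized counts in any library. The de novo expanded libraries differed widely in Mpo, with 218137 normalized counts in library 3 against 22355 and 36037 in libraries 1 and 2. The other groups lay between these values, at 85053.9 to 95650.5 in pre-malignant and 101104 to 123617 in stably expanded libraries. In these bulk samples, fewer cells of a type and less RNA per cell cannot be told apart, and the part of other cells in the results was not tested.

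Per kilobase of gene length, the constitutive cytosolic chaperones led. Hsp90ab1, the constitutive HSP90, had a mean of 13439 normalized counts per kilobase over the 9 libraries, with a range of 11175 to 15850. Hspa8, the constitutive HSP70 (HSC70), had a mean of 3696 per kilobase and Hsp90aa1 1767. Their ranges of 2795 to 4822 and 1109 to 2780 came close but did not overlap. Hspd1, the mitochondrial chaperonin HSP60, followed with 656 per kilobase. Dnajb1, the stress-inducible J protein, had 321 and Hsph1, the HSP110 exchange factor, had 221. Their ranges over the libraries, 242 to 407 and 152 to 336 per kilobase, overlapped. Hsf1 had 109 per kilobase, close to 107 for Hspa1b and above 60.0 for Hspa1a, and the ranges of the inducible HSP70 genes covered that of Hsf1. Together the 10 genes took 0.398% to 0.623% of the reads on genes.

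Hspb1, which encodes the small heat shock protein HSP27, was all but absent. It had 1 read in de novo expanded library 1 and none in the other 8 libraries, where a count of 0 allows up to 3 reads. It was therefore not tested, and 9 of the 10 members passed the filter of a mean of 10 normalized counts in every comparison. Of the 8 other small heat shock proteins, only Hspb6 passed, with 56.3 to 149 normalized counts.

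**Figure D1:**
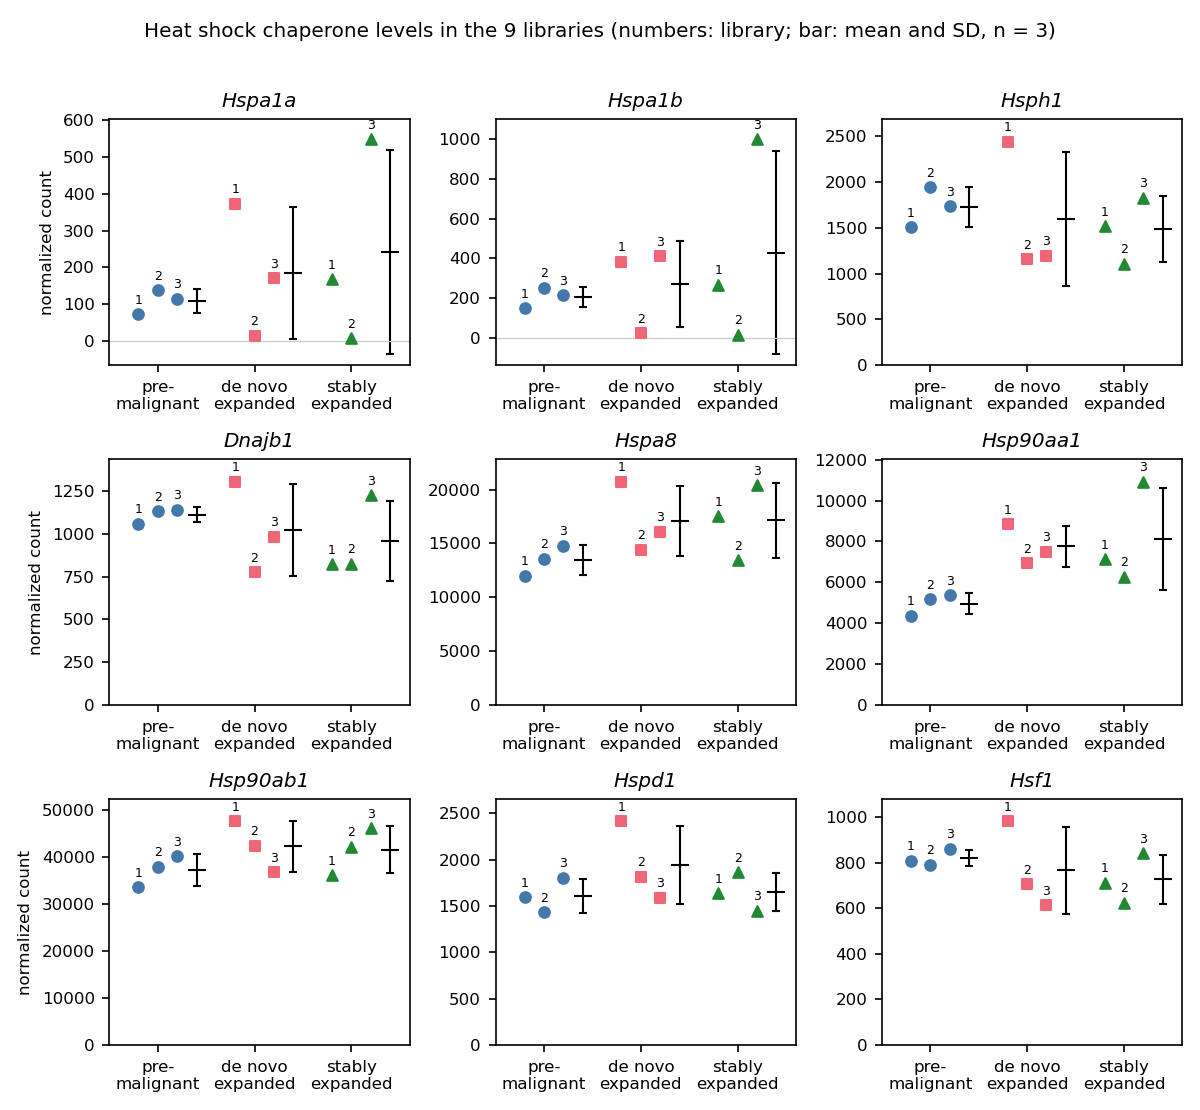
Normalized counts of the 9 tested members in each of the 9 libraries. Each point is a library, numbered within its group, and the black bar gives the mean with the SD of the 3 libraries. Hsp90aa1 is higher in all 6 libraries of expanded clones than in the 3 pre-malignant libraries, and Hspa1a and Hspa1b are spread widest in the expanded clones.

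Hspa1a and Hspa1b encode nearly the same HSP70 protein and lie next to each other on chromosome 17, at chr17:34969190-34972156 and chr17:34956436-34959238 on the minus strand of GRCm38. Their promoters are shown because the levels of the copies moved together. In the RefSeq promoters of GRCm38.p6, the bases from 250 before to 50 after the start were the same at 296 of 300 positions. The stretches below begin 215 bases before the start of each gene, at chr17:34972182-34972371 and chr17:34959264-34959453, are written in the direction of the gene, and differ at 2 of 190 bases. Capitals mark the units of a heat shock element with 2 units, searched as GAANNTTC or TTCNNGAA on both strands, which begins 104 bases before the start in both.
Hspa1a: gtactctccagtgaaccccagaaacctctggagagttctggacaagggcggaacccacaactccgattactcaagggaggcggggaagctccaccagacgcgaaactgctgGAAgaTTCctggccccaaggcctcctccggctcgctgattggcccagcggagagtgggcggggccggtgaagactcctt
Hspa1b: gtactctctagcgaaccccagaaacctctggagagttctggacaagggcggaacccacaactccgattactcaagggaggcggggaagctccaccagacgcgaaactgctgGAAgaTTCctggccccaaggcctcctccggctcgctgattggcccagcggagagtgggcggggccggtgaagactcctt
Such a pair of units is common, found in 15.1% of 32851 promoters of the same length, so the match describes these letters only.

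The copies also share much of their transcript. Of all 38-base windows, the read length of the sequencing, 62.5% of those of Hspa1a and 65.3% of those of Hspa1b occur in the other transcript (models of an older build, NCBIM37), and 85.9% and 85.7% in the coding sequence. Reads from these windows could be split or lost between the copies, so their separate levels are uncertain, and the sum of both is given beside them.

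In pre-malignant libraries 1 to 3, Hspa1a had 72.5, 138 and 115 normalized counts. In de novo expanded libraries 1 to 3 it had 373, 13.9 and 169.6, and in stably expanded libraries 1 to 3 it had 167, 6.43 and 548. De novo expanded library 2 and stably expanded library 2 thus lay below every pre-malignant library, and the 4 other libraries of expanded clones lay above them. In reads, the lowest library held 7 and the highest 408.

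Hspa1b gave the same picture. Its pre-malignant libraries had 149, 251 and 214 normalized counts, its de novo expanded libraries 383, 21.8 and 410.4, and its stably expanded libraries 268, 14.7 and 999. Again the 4 other libraries of expanded clones lay above the pre-malignant libraries, and library 2 of each expanded group far below. Summed over the copies, the levels were 222, 389 and 329 in pre-malignant, 756, 35.7 and 579.9 in de novo expanded and 435, 21.1 and 1547 in stably expanded libraries. The highest library exceeded the lowest 1.75-fold in the pre-malignant group, 21.1-fold among de novo and 73.3-fold among stably expanded libraries. The pre-malignant libraries came from 1 mouse and those of each expanded group from different mice, so these ranges do not compare like samples.

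A range this wide was rare in these data. Of 13960 genes with a mean of at least 10 normalized counts, 0.530% had a range over the 9 libraries at least as wide as the 85.3-fold range of Hspa1a, and 0.616% at least as wide as the 68.0-fold range of Hspa1b. The SD within groups was 2.34 on the log2 scale for Hspa1a and 2.25 for Hspa1b, against 0.42 for Hsph1 and 0.17 for Hsp90ab1. Per 100 reads of the constitutive Hspa8 there were 1.84 to 2.86 reads of Hspa1a and Hspa1b together in pre-malignant libraries, 0.248 to 3.64 in de novo expanded and 0.157 to 7.58 in stably expanded libraries, a ratio that does not depend on library scaling. The ratio between the copies moved much less, from 41.3 to 97.3 Hspa1a reads per 100 Hspa1b reads. Hspa1l, a neighbouring HSP70 gene, had at most 16.1 normalized counts, and its highest values of 12.5 and 16.1 fell in de novo expanded library 1 and stably expanded library 3.

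The libraries low in these genes did not stand apart in depth. De novo expanded library 2 held 15551196 reads on genes and stably expanded library 2 held 14594967, with 13.1% and 9.36% of reads on mitochondrial genes against 8.54% to 12.9% in the others. The part of sample handling, clone and mouse in this spread was not tested, since no column could be tied to a clone or mouse.

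**Figure D2:**
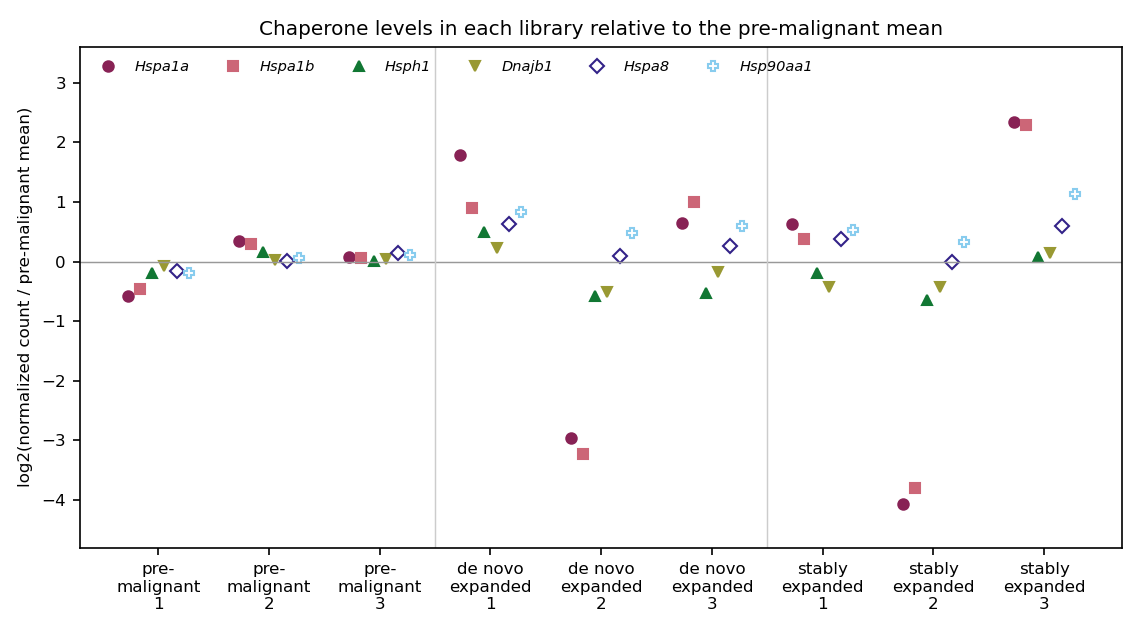
Level of 6 members in each library relative to the mean of the pre-malignant libraries, as log2 of the ratio of normalized counts. Hspa1a and Hspa1b fall far below the pre-malignant mean in de novo expanded library 2 (13.9 and 21.8 normalized counts) and stably expanded library 2 (6.43 and 14.7). Hsph1 is lowest in the same library of each expanded group, in the de novo group by a narrow margin (1159 against 1193 in library 3).

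The comparison of de novo expanded with pre-malignant clones asks what accompanies the expansion of the same clones. None of the 9 members tested was called, that is reached both an adjusted p under 0.05 and a 2-fold difference (limma with Benjamini-Hochberg adjustment over 14195 genes, background 0.0%), nor was any called by edgeR or DESeq2. Of the members, 1 had an unadjusted p under 0.05, against 11.3% of all genes. The median log2 fold change of the 9 members was -0.08, beside 0.01 over all genes tested.

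In the comparison of stably expanded with pre-malignant clones, which sets a clone that dominated several mice against minor clones, 0 of the 9 members were called with any of the 3 tools, at a background of 2.75% of 13968 genes with limma, 1.2% higher and 1.55% lower. An unadjusted p under 0.05 was reached by 2 members, against 25.4% of all genes. The median was -0.19 for the members and 0.00 for all genes. Between stably and de novo expanded clones, 0 of 9 members were called with any of these tools (background 0.00727% of 13758 genes), none had an unadjusted p under 0.05, against 4.83% of all genes, and the median was -0.04. The comparisons share libraries and are not independent of each other.

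For Hspa1a the mean of log2 levels in de novo expanded clones was 0.08 below that of pre-malignant clones, a fold of 0.944 with a 95% confidence interval of 0.170 to 5.25 (adjusted p = 0.987, limma). Its mean normalized count, 185 ± 179.9 (SD, n = 3), was by contrast above the 108 ± 33.1 of pre-malignant clones, and edgeR and DESeq2, which fit mean counts, gave log2 fold changes of 0.78 and 0.79. In stably expanded clones the fold was 0.836 (interval 0.142 to 4.91, adjusted p = 0.914, limma), while the mean count was 241 ± 278. Hspa1b gave folds of 0.771 (0.145 to 4.10) and 0.803 (0.150 to 4.29), with the direction likewise turned under both count tests. Without stably expanded library 2 the log2 fold change of Hspa1a over pre-malignant clones was 1.52 (adjusted p = 0.0686, limma), and without stably expanded library 3 it was -1.58. Differences within these intervals were not excluded for these genes, and a single library decided the direction.

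**Figure D3:**
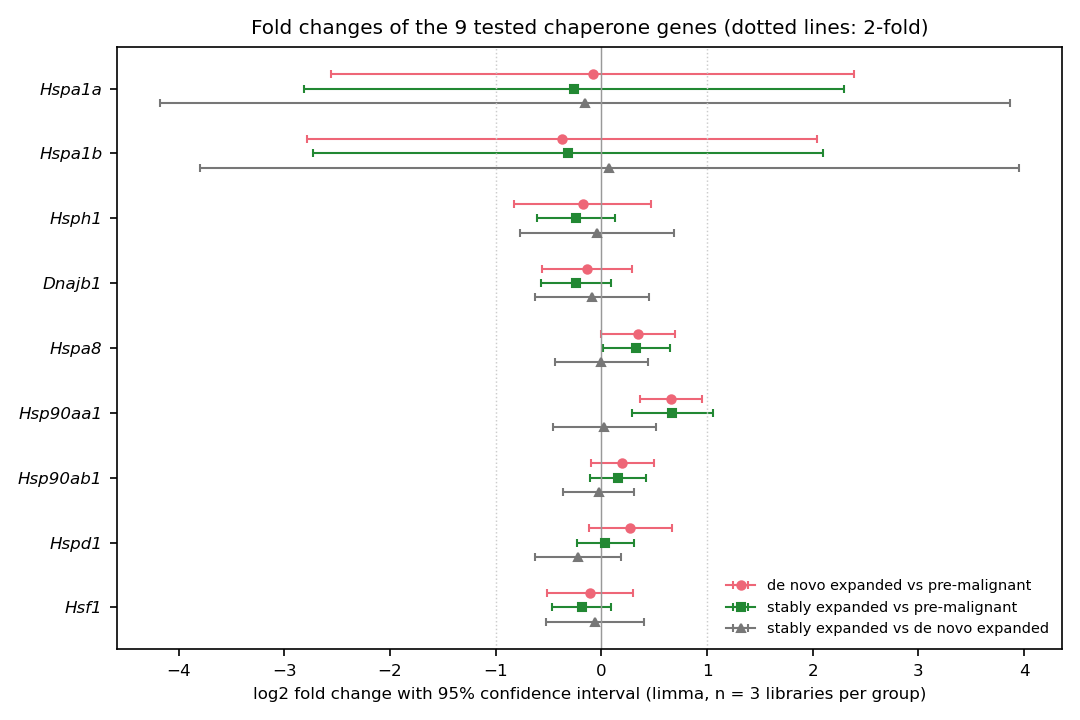
Log2 fold changes of the 9 tested members in the 3 comparisons, with 95% confidence intervals from limma on log2(normalized count + 1) and 3 libraries per group. The intervals of Hsp90aa1 against pre-malignant clones, 0.37 to 0.96 and 0.29 to 1.06, exclude 0, whereas those of Hspa1a and Hspa1b reach past 2-fold in both directions.

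Hsph1 and Dnajb1 serve the same HSP70 cycle, the former as nucleotide exchange factor and the latter as J protein that hands over clients. Hsph1 had 1509, 1940.0 and 1737 normalized counts in pre-malignant, 2439.9, 1159 and 1193 in de novo expanded and 1519, 1107 and 1829 in stably expanded libraries. Its log2 fold changes over pre-malignant clones were -0.18 (95% interval -0.83 to 0.47) and -0.24 (-0.61 to 0.13), with adjusted p of 0.848 and 0.398 (limma). The groups overlapped, and the lowest library of each expanded group was the one lowest in Hspa1a. In the de novo group the margin was narrow, 1159 in library 2 against 1193 in library 3, where Hspa1a had 169.6.

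Dnajb1 had 1059, 1131 and 1139 normalized counts in pre-malignant libraries, a range of 1.08-fold. De novo expanded libraries had 1304, 776 and 983, and stably expanded libraries 823, 824 and 1225, so that both groups reached above and below the pre-malignant values. The log2 fold changes were -0.13 (-0.56 to 0.29) and -0.24 (-0.57 to 0.09), with adjusted p of 0.822 and 0.351 (limma). Without stably expanded library 3, the log2 fold change of Dnajb1 in stably expanded clones was -0.43 with an adjusted p of 0.0409 (limma), short of 2-fold.

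Hspa8, the HSP70 that serves folding in unstressed cells, had 12022, 13597 and 14799.6 normalized counts in pre-malignant libraries. In de novo expanded libraries it had 20738, 14432 and 16069, and in stably expanded libraries 17536, 13466 and 20402. In each expanded group 2 libraries lay above every pre-malignant library, and library 2 lay among them. The log2 fold change was 0.35 (-0.00 to 0.70, adjusted p = 0.445) in de novo and 0.33 (0.02 to 0.65, adjusted p = 0.175) in stably expanded clones (limma), so neither passed. With quantile normalization the values of Hspa8 were 0.16 and 0.15. Without stably expanded library 2 the latter value was 0.49 with an adjusted p of 0.0359 (limma), again short of 2-fold.

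Hsp90aa1 encodes the inducible form of HSP90, the chaperone that holds kinases and steroid receptors in a form ready for activation, and lies at chr12:110690605-110702728. It had 4361, 5175 and 5363 normalized counts in pre-malignant libraries. De novo expanded libraries had 8853, 6935 and 7498, and stably expanded libraries had 7135, 6270.2 and 10928. All 6 libraries of expanded clones lay above all 3 pre-malignant ones, which 10.6% of all genes did in the de novo and 16.1% in the stably expanded comparison.

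The mean level was 4967 ± 533 normalized counts in pre-malignant, 7762 ± 986 in de novo and 8111 ± 2478 in stably expanded clones (SD, n = 3). The log2 fold change of Hsp90aa1 over pre-malignant clones was 0.66 (SE 0.13) in de novo expanded clones, or 1.58-fold with a 95% interval of 1.29 to 1.94, and 0.67 (SE 0.17) in stably expanded clones, or 1.59-fold with an interval of 1.22 to 2.08. The adjusted p was 0.330 in the former and 0.0417 in the latter (limma, unadjusted p = 0.000959 and 0.00282), so that only the latter passed the adjusted p, where 4.34% of genes passed upward, and neither reached 2-fold. Whether the groups of expanded clones differed was tested directly, with a log2 difference of 0.03 (-0.46 to 0.52, adjusted p = 0.994, limma).

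The adjusted p of Hsp90aa1 depended on single libraries and on the analysis. For stably expanded clones it was 0.0805 with quantile normalization and 0.126 in a single limma fit of all 9 libraries, and it did not pass in either. For de novo expanded clones it ranged from 0.0175 to 0.795 with a library left out (limma). The lowest value came without de novo expanded library 3, the library highest in Mpo. On all libraries of this comparison, limma gave 0.330 and DESeq2 0.00735. For stably expanded clones, leaving out pre-malignant library 1, 2 or 3 or stably expanded library 1 gave 0.138, 0.112, 0.0738 and 0.0643. The log2 fold change of Hsp90aa1 stayed between 0.44 and 0.83 in all fits against pre-malignant clones.

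Hsp90ab1, the constitutive partner, did not follow to the same degree. It had 33514, 37947 and 40136 normalized counts in pre-malignant, 47534, 42385 and 36803 in de novo expanded and 36159, 42174 and 46087 in stably expanded libraries, and the groups overlapped. Its log2 fold changes were 0.20 (-0.10 to 0.49, adjusted p = 0.568) and 0.15 (-0.11 to 0.42, adjusted p = 0.453, limma). There were 13.0 to 13.6 Hsp90aa1 reads per 100 Hsp90ab1 reads in pre-malignant libraries, against 16.4 to 20.4 in de novo and 14.9 to 23.7 in stably expanded ones. The ratio, which does not depend on library scaling, was thus higher in all 6 libraries of expanded clones than in the 3 pre-malignant ones, where an exact permutation test of 3 against 3 libraries could not give a two-sided p below 0.1.

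Another set of stress-linked genes differed between the groups in the opposite direction. The 16 immediate early genes listed (Fos, Jun, Egr1 and others, which respond within minutes to growth factors and to handling of cells) summed to 41639 to 46689 normalized counts in pre-malignant, 22421 to 28114 in de novo and 14305 to 32128 in stably expanded libraries. In stably expanded clones 10 of the 15 tested were lower at an adjusted p under 0.05 (limma) and 6 of them also by 2-fold, at a background of 3.61% and 1.55%. In de novo expanded clones 11 of 16 had an unadjusted p under 0.05 in this direction, against 5.26% of all genes, and 0 passed the adjusted p. Library by library the picture was mixed. Stably expanded library 3 had the highest summed level of these genes in its group and also the highest Hsp90aa1. De novo expanded library 2 had the highest summed level in its group and the lowest Hsp90aa1. The part of the immediate early genes in the levels of the chaperones was not tested.

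Hspd1, which folds proteins imported into mitochondria together with its co-chaperonin Hspe1, shares its promoter with Hspe1, which is read from the other strand. The RefSeq stretch at chr1:55088047-55088096, written in the direction of Hspd1, begins 164 bases before the start used here. The other RefSeq promoter window of Hspd1, chr1:55088194-55088493, holds neither motif. The stretch lies downstream of that window and of its start, so it is upstream only by the start used here. Promoter entries were given for 6 members (Hspa1a, Hspa1b, Hsph1, Dnajb1, Hspb1 and Hspd1). The stretch is shown because only Hspd1 among them had a heat shock element of 3 units upstream of a start. Capitals mark the units of 2 overlapping matches to TTCNNGAANNTTC or GAANNTTCNNGAA, which 0.603% of the 32851 promoters hold.
Hspd1: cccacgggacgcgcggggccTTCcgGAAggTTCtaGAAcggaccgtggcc
In Hsph1 a match of 3 units lies downstream of the start, 36 or 15 bases into the transcript by the start used. Hspb1 holds pairs of units that begin 117 and 97 bases before its start, and the promoter windows of Dnajb1 hold neither motif.

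Hspd1 had 1593, 1431 and 1804 normalized counts in pre-malignant, 2413, 1818 and 1591 in de novo expanded and 1638, 1868 and 1449 in stably expanded libraries. The groups overlapped, and the log2 fold changes were 0.27 (-0.12 to 0.67, adjusted p = 0.557) in de novo and 0.04 (-0.23 to 0.31, adjusted p = 0.883) in stably expanded clones (limma). Its partner Hspe1 had 469.6 to 605 in pre-malignant, 539 to 651 in de novo and 459 to 655 in stably expanded libraries. In stably expanded library 2, where Hspa1a was lowest, Hspd1 had the highest level of its group and Hspe1 the lowest of all 9 libraries.

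Hsf1 itself had 809, 792 and 862 normalized counts in pre-malignant, 981, 706 and 612 in de novo expanded and 713, 624 and 842 in stably expanded libraries. The log2 fold changes were -0.11 (-0.52 to 0.30, adjusted p = 0.855) and -0.18 (-0.46 to 0.10, adjusted p = 0.395, limma). HSF1 is controlled largely at the protein, which was not measured. Of the other HSF genes Hsf2 was tested, with 134 to 286 normalized counts and no difference that passed. Hsbp1, whose product binds HSF1 trimers, had 459 to 574 normalized counts in pre-malignant and 595 to 766 in the other 6 libraries, with adjusted p of 0.464 and 0.105 (limma).

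Between de novo and stably expanded clones, all 9 members overlapped, as did most genes, with 4.66% of all genes entirely higher and 4.95% entirely lower. The intervals of the log2 difference were narrowest for Hsp90ab1 (-0.36 to 0.31) and widest for Hspa1a (-4.18 to 3.86). For Hspa8 the interval was -0.44 to 0.44, for Hspd1 -0.62 to 0.19, for Dnajb1 -0.63 to 0.45, for Hsph1 -0.77 to 0.68 and for Hsf1 -0.52 to 0.41. Differences within these intervals were not excluded.

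The wider chaperone network was described with 105 other chaperone and co-chaperone genes in 10 classes, of which 90 were tested in each comparison. In de novo expanded clones 71 of the 90 had a positive log2 fold change, against 51.0% of all genes, with a median of 0.17, and none was called by limma, edgeR or DESeq2 (background 0.0%). Of these genes, 17 were higher at an unadjusted p under 0.05 (background 5.99%) and 4 lower (5.26%), and 28 lay entirely above (10.6%) and 4 entirely below (8.5%) the pre-malignant libraries. In stably expanded clones 65 of 90 were positive, against 50.5% of all genes, with a median of 0.16, and 23 were higher (13.2%) and 3 lower (12.3%) at an unadjusted p under 0.05. Of the 90, 25 lay entirely above (16.1%) and 9 entirely below (14.6%) the pre-malignant libraries. In this comparison 5 genes passed the adjusted p, against 7.95% of all genes, and 1 was called.

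The chaperonin TRiC, a ring of 8 different subunits that folds actin and tubulin, was the most uniform class. All 8 subunits had positive log2 fold changes in both comparisons, from 0.18 to 0.45 in de novo and from 0.15 to 0.37 in stably expanded clones. In 7 of them the de novo expanded libraries did not overlap the pre-malignant ones (background 10.6%), and in 5 the stably expanded libraries did not (16.1%). Tcp1 had 4414, 4614 and 4988 normalized counts in pre-malignant, 6890.1, 6184 and 5523 in de novo and 5667, 6188 and 6268 in stably expanded libraries. Its log2 fold change was 0.42 (adjusted p = 0.360) in de novo and 0.37 (adjusted p = 0.0305) in stably expanded clones (limma). By unadjusted p, Cct6a (0.45) and Cct5 (0.35) followed Tcp1 in de novo expanded clones, and Cct7 (0.32, adjusted p = 0.0531, limma) followed it in stably expanded ones.

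Prefoldin, which delivers nascent actin and tubulin to TRiC, had 5 of 6 and 6 of 6 positive values with medians of 0.35 and 0.24, and Vbp1 reached 0.46 in de novo expanded clones (adjusted p = 0.384, limma). Of 19 HSP90 co-chaperones, 18 were positive in de novo and 16 in stably expanded clones, against 51.0% and 50.5% of all genes, with medians of 0.17 and 0.18, and 6 and 7 of them lay entirely above the pre-malignant group (background 10.6% and 16.1%). Ptges3, the p23 co-chaperone that holds HSP90 in its closed state, had 831, 1009 and 1096 normalized counts in pre-malignant, 1516, 1447 and 1178 in de novo and 1169, 1327 and 1377 in stably expanded libraries. Its log2 fold changes were 0.52 (adjusted p = 0.380) and 0.41 (adjusted p = 0.0700, limma). Fkbp4, which links HSP90 to steroid receptors, reached 0.40 in de novo expanded clones (adjusted p = 0.384, limma).

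**Figure D4:**
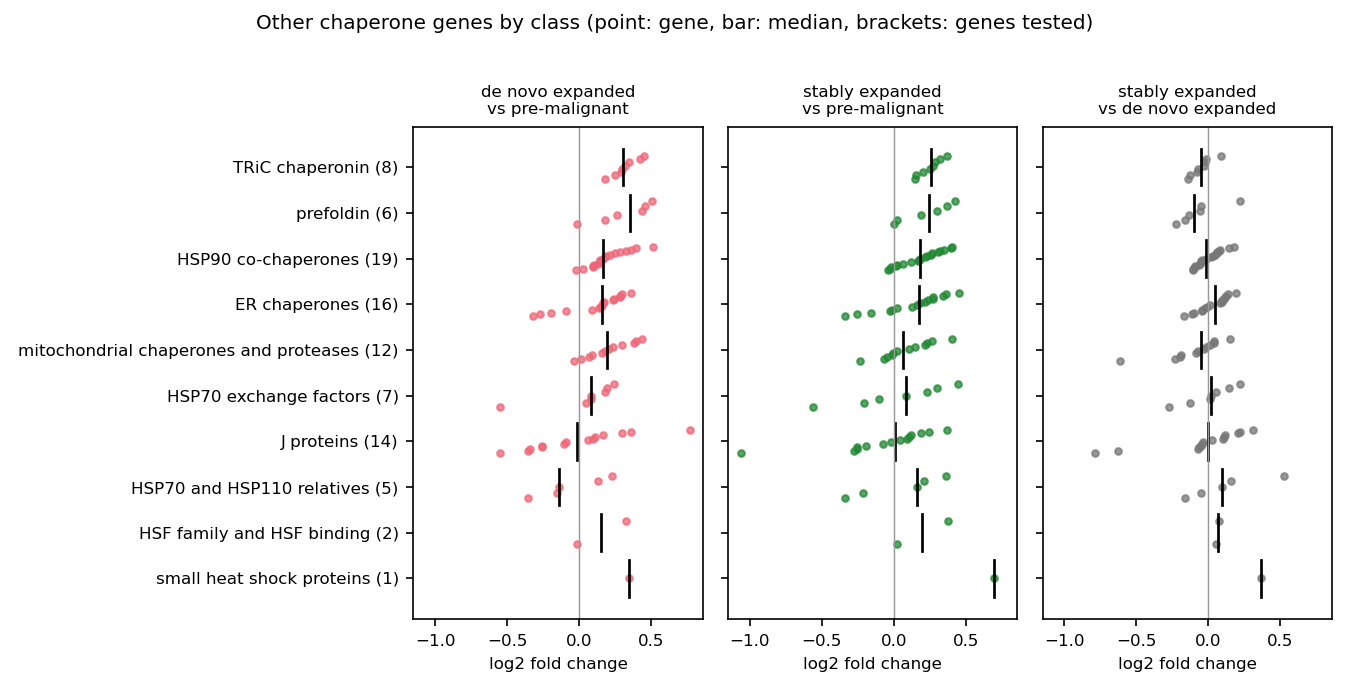
Log2 fold changes of the 90 tested genes of the chaperone network by class in the 3 comparisons. Points are genes, black bars class medians, and brackets give the number of genes tested. All 8 TRiC subunits lie to the right of 0 against pre-malignant clones, with medians of 0.31 and 0.26. Between the expanded groups their median is -0.05, with 1 positive and 7 negative, where 49.6% of all genes are positive.

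J proteins and HSP70 exchange factors were mixed. Of 14 J proteins tested, 7 were positive in each comparison with pre-malignant clones. Dnajb4, a cytosolic J protein of the Dnajb1 type, had 188, 229.8 and 163 normalized counts in pre-malignant, 114, 192 and 182 in de novo and 139, 67.0 and 81.9 in stably expanded libraries. It fell in stably expanded clones, with a log2 fold change of -1.06 (adjusted p = 0.0452, limma), as the 1 network gene called, against 1.55% of all genes called lower. The call was lost with edgeR, in a single fit of all 9 libraries and without any of the 3 pre-malignant libraries or stably expanded library 2 or 3. Dnajc8, a J protein linked to splicing, was 0.37 higher on the log2 scale in stably expanded clones (adjusted p = 0.0376, limma) and 0.36 in de novo expanded ones (adjusted p = 0.366), and Dnajc2, which acts at the ribosome, was 0.30 higher in the latter (adjusted p = 0.384).

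Bag3, the exchange factor that couples HSP70 to autophagy and is itself a heat shock gene, had 519, 573 and 618 normalized counts in pre-malignant, 547, 381 and 269 in de novo and 409.9, 347 and 402 in stably expanded libraries. It was lower in stably expanded clones at an adjusted p of 0.0295 (log2 fold change -0.56, limma), short of 2-fold, and in de novo expanded clones the log2 fold change was -0.55 with overlapping groups. Bag4 had a log2 fold change of 0.45 in stably expanded clones (adjusted p = 0.0672, limma). The medians of the 7 exchange factors were 0.09 and 0.09. Of the 5 tested relatives of HSP70 and HSP110, 2 and 3 were positive, with medians of -0.14 and 0.16.

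In the mitochondria, 11 of 12 chaperones and proteases were positive in de novo and 7 of 12 in stably expanded clones, with medians of 0.19 and 0.06. In the endoplasmic reticulum, 12 and 11 of 16 were positive, with medians of 0.16 and 0.17. P4hb, the protein disulfide isomerase, had 15016 to 16599 normalized counts in pre-malignant and 18579 to 22277 in stably expanded libraries and passed the adjusted p there (log2 fold change 0.36, adjusted p = 0.0488, limma).

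Between stably and de novo expanded clones, 42 of 90 network genes were positive, against 49.6% of all genes, with a median of -0.01, and none was called (limma, edgeR or DESeq2). The 2 genes with an unadjusted p under 0.05, both lower (background 2.11%, and 2.72% higher), act in mitochondria. Hscb, a J protein for iron-sulfur cluster assembly, had 186, 160.4 and 194 normalized counts in de novo and 129, 107 and 116 in stably expanded libraries, with a log2 difference of -0.62. Trap1, the mitochondrial HSP90, differed by -0.23. Dnajb4 (-0.79), Dnajb2 (-0.62), Hspa4l (0.52), Dnajc3 (0.19), Pdia6 (-0.17) and Grpel1 (0.15) were next, and all 8 had an adjusted p of 0.891 (limma).

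The genes most like the inducible members were sought over the 9 libraries, by Pearson correlation of log2 levels with the mean standardized log2 level of Hspa1a, Hspa1b, Hsph1 and Dnajb1. This mean was lowest in stably expanded library 2 (-1.49) and de novo expanded library 2 (-1.33) and highest in de novo expanded library 1 (1.15) and stably expanded library 3 (1.04). Of 13960 genes ranked, the 5 most alike were Txlna and Mto1 (r = 0.96 each), Gm15444 (0.93), Prpf3 (0.93) and Dhx16 (0.90). They share the libraries and their scaling with the members, and all but Gm15444 varied at most 1.35-fold in level, and Hspa1a varied 85.3-fold. Txlna ranged from 2974 to 3728 normalized counts where Hspa1a ranged from 6.43 to 548.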

How the data were processed

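Strand-specific total RNA of sorted cells was sequenced as paired 38-base reads. The authors processed the reads with nf-core/rnaseq (per the submitters' processing notes Trim Galore 0.6.4, STAR 2.6.1d and featureCounts 1.6.4) on GRCm38.p6 with GENCODE M25 and ran DESeq2 without replacing or filtering outliers and without independent filtering. Each of the 3 deposited tables covers a pair of groups and holds a signal per gene and library, namely the authors' read counts scaled by the DESeq2 size factors of its 6 libraries (normalized counts). The gene lengths in other columns are as the authors deposited them. Columns with the mean and with the authors' log2 fold change, standard error, Wald statistic and p-values were not used. Columns carry group names but no sample names, so libraries were numbered 1 to 3 in column order.

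Dividing by the step of each library gave whole reads (tolerance 0.05 reads) in 99.99% or more of values above 0, and the same reads in both tables that hold a library. Printed levels are these reads over median-of-ratios size factors of all 9 libraries. Depth was 10379739 to 15551196 reads on genes, and limits for a count of 0 cover counting error only.

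The test, two-sided, was limma 3.58.1 (R 4.3.3) with its trended empirical Bayes moderation, applied to log2(normalized count + 1). It covered the genes whose mean over the 6 libraries of a pair reached 10, with Benjamini-Hochberg adjustment over them all. Calls needed an adjusted p under 0.05 together with a 2-fold difference. Fold changes are on this log2 scale, which understates changes of low genes. The fit was tested on simulated data. Alternatives were pseudocounts of 0.1 and 5, no filter or a minimum mean of 50, medians set equal or whole distributions set equal (quantile normalization), edgeR 4.0.16 and DESeq2 1.42.0 on the recovered reads, a fit of all 9 libraries, no fold limit, the sum of Hspa1a and Hspa1b, and leaving out each library. Python 3.11.15 (pandas 2.3.3) made the tables and matplotlib 3.10.9 the figures.

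The members, the gene lists and the marker lists were chosen with earlier results of these data known. Of the network, each gene called is named, and where fewer than 8 were called, those of smallest unadjusted p up to 8. Hspe1, Hsbp1, Hspa1l, Hspb6, Hsf2, Fos, Jun and Egr1 were named after their values were seen. Promoters are RefSeq entries of GRCm38.p6. A gene edit that all groups share is not reported here.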

Additional observations from a re-analysis of the deposited data

How the results depend on the processing

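No paired analysis was possible because the columns of the tables carry no clone, mouse or replicate number. The number of members called stayed at 0 in every comparison and alternative except without the fold limit, where it was 1 (Hsp90aa1) in stably expanded against pre-malignant clones. Of the network 1 gene was called there, 0 with edgeR or a fit of all 9 libraries, 5 without the fold limit and 0 to 1 with a library left out (0 without pre-malignant library 1, 2 or 3 or stably expanded library 2, and Hspb6 in place of Dnajb4 without stably expanded library 3).

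The direction of weak differences turned with the method, and the cause was not tested. The median of the members in de novo expanded against pre-malignant clones (-0.08 on the log2 scale) was 0.27 with edgeR, 0.28 with DESeq2, 0.0578 with no filter, which moved the median of all genes to -0.18 here and to -0.31 in stably expanded clones, and 0.0461 with Hspa1a and Hspa1b summed. In stably expanded against pre-malignant clones it was 0.15 with edgeR and 0.15 with DESeq2. With edgeR and DESeq2, Hspa1a was 0.78 and 0.79 and Hspa1b 0.41 and 0.42 in de novo, and Hspa1a 1.12 and 1.14 and Hspa1b 1.03 and 1.05 in stably expanded against pre-malignant clones. Between the expanded groups, Hspa1a was 0.36 with edgeR and 0.37 with DESeq2, Hspa1a and Hspa1b summed -0.0373, Hsp90aa1 -0.0295 with quantile normalization, and Hspa8 -0.00787 with centring on the median and -0.000907 with DESeq2. Hspd1 in stably expanded against pre-malignant clones was -0.00926 with quantile normalization.

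With each library left out in turn, the values that changed sign ranged as follows. In de novo expanded against pre-malignant clones, the median ranged from -0.30 to 0.31, Hspa1a from -1.04 to 1.28, Hspa1b from -1.09 to 1.00, Hsph1 from -0.53 to 0.00878, Dnajb1 from -0.32 to 0.0495 and Hsf1 from -0.30 to 0.0371. In stably expanded against pre-malignant clones, the median ranged from -0.30 to 0.14, Hspa1a from -1.58 to 1.52, Hspa1b from -1.63 to 1.36 and Hspd1 from -0.0575 to 0.13. Between the expanded groups, the median ranged from -0.23 to 0.15, Hspa1a from -1.51 to 1.63, Hspa1b from -1.30 to 1.76, Hsph1 from -0.23 to 0.30, Dnajb1 from -0.28 to 0.10, Hsp90aa1 from -0.21 to 0.19, Hsp90ab1 from -0.12 to 0.0695, Hspa8 from -0.13 to 0.16 and Hsf1 from -0.21 to 0.13. Among those that kept their sign, the value nearest 0 in de novo against pre-malignant clones was 0.109 for Hspd1, 0.204 for Hspa8 and 0.113 for Hsp90ab1, and in stably expanded against pre-malignant clones 0.196 for Hspa8, 0.0755 for Hsp90ab1, -0.0457 for Hsph1 and -0.0830 for Hsf1. Of the values of single members under an alternative, 412 kept their direction and their side of the call, which needs both the adjusted p and the 2-fold limit, 46 turned and 1 was newly called (Hsp90aa1, above). The adjusted p alone crossed its threshold more often, for Hsp90aa1, Hspa8 and Dnajb1, with the values given where each gene is described. Over all genes, de novo expanded against pre-malignant clones gave 0 calls with limma and edgeR, 62 with DESeq2 and 214 with limma without de novo expanded library 3.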
